A study of Mus musculus with 9 samples.

Results

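The 10 genes described here are markers of the type 1 conventional dendritic cell (cDC1), namely Xcr1, Cadm1, Itgae, Wdfy4, Gcsam, Naaa, Snx22, Cd24a, Ppt1 and Rab7b. Their values were taken from the probes annotated with 1 of these symbols and no other gene, which gave 11 probes for 10 of the 22180 genes tested, with a pair of probes for Cd24a. Dendritic cells (DCs) had been sorted from mouse spleens as CD11c-positive and MHC class II-positive, and their RNA was read on 9 arrays, 1 per sample. The 3 knockout samples (C/EBPβ-/-) came from CD11c.Cre mice crossed to mice with a loxP-flanked C/EBPβ gene, and the 6 control samples carried the C/EBPβ+/+ genotype. All 9 are labelled with the C57BL/6 background and a naive microenvironment, and no age is given. The design text names CD11c-Cre-eGFP mice as the C/EBPβ+/+ source, while the protocols name both C57BL/6 and CD11c.Cre mice, and which control came from which is not labelled. Cre under the CD11c promoter acts in any cell that uses this promoter, so the deletion is not particular to cDC1. Whether each replicate is its own animal is not labelled, and the p-values therefore cover only the spread between samples, in part perhaps technical.

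The cDC1 is the DC subset that depends on the transcription factors IRF8 and BATF3. In mouse spleen it carries CD8α, takes up material of dying cells, presents it on MHC class I to CD8 T cells (cross-presentation) and is a main source of interleukin-12. The other conventional subset, the cDC2, carries SIRPα and CD11b and mainly primes CD4 T cells. The sort used here holds both subsets, so a marker level in this RNA reflects the share of cDC1 among the sorted cells and the transcript amount per cDC1, and fewer cells of a type and less RNA per cell cannot be told apart. C/EBPβ, a transcription factor of the basic leucine zipper class, acts in myeloid cells, and the series asks how its loss affects DC maturation and cell fate without infection or tumour.

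Promoter windows, from 250 bases before to 50 bases after the annotated start site, were available for 6 of the 10 genes (Xcr1, Wdfy4, Gcsam, Naaa, Ppt1 and Snx22, the last with 2 overlapping windows) from RefSeq, build GRCm38.p6. The 3 windows that held a match to a motif of C/EBP factors or of the BATF and IRF pair are shown, since these factors are the deleted protein and the regulators that define the subset. Capitals mark the match, and each line is written 5′ to 3′ on the strand of the gene.
Xcr1 (chr9:123861980-123862279, minus strand): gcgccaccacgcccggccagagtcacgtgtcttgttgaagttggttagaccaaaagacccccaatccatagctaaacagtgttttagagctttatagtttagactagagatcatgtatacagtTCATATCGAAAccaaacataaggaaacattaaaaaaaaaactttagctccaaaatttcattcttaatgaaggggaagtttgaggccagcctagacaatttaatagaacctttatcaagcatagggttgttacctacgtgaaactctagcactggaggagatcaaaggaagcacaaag
Gcsam (chr16:45610190-45610489, plus strand): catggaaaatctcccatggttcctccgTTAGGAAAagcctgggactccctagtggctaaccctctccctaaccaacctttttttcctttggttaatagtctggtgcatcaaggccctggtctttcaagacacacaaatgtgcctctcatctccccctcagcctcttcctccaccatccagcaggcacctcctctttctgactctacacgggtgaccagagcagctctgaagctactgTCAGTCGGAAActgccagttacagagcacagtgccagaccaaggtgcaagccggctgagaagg
Ppt1 (chr4:122835977-122836276, plus strand): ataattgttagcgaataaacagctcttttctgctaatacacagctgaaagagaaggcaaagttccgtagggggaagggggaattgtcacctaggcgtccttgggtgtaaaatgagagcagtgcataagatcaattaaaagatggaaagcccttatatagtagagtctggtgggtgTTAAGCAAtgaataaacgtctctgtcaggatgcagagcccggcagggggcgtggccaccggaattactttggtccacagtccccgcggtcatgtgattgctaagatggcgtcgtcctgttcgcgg
Motifs were searched on both strands, with N for any base. The letters TTNCNNAA stood for C/EBP and TGANTCA for AP-1. A short form of the AP-1-IRF composite element (AICE), bound by BATF with IRF factors, was TTTC, then 4 bases of any kind, then TGA. The ETS-IRF composite element (EICE) was GGAA, 2 bases of any kind and GAAA, and the interferon-stimulated response element (ISRE) was GAAA, 2 bases of any kind and GAAA. The C/EBP letters begin 223 bases before the start site of Gcsam and 75 bases before that of Ppt1, and they were found in 2 of the 6 genes against 40.7% of all 32851 windows of this length. The AICE letters begin 127 bases before the start of Xcr1 and 13 bases before that of Gcsam, 2 of the 6 genes against 4.56% of all windows. AP-1, EICE and ISRE letters were found in 0 of the 6, against 7.81%, 2.72% and 3.44% of all windows. No match overlapped another, and a match describes letters and not a bound site.

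The deletion was checked first. Cebpb had log2 intensities of 5.37, 5.60 and 5.42 in knockout samples 1 to 3, against 6.64 to 7.15 in the 6 controls, with no overlap, and the log2 change was -1.35 (SE 0.11, limma's adjusted p = 0.00074). Over all genes, array medians lay between 5.49 and 5.56, and 201 of 22180 genes (0.906%) differed between knockout and control at an adjusted p under 0.05, 92 higher and 109 lower in the knockout. Knockout sample 3 stood apart by its B cell markers, whose mean log2 intensity was 7.35 to 8.25 in knockout and 7.39 to 7.60 in control samples. Without it 182 genes passed, 134 higher and 48 lower. The balance was 78 higher and 254 lower without knockout sample 1, and 26 higher and 7 lower without knockout sample 2. The count for the 10 cDC1 genes given next was 0 without any 1 of the 3.

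The cDC1 identity genes were bright, with a mean control intensity above that of the median gene (5.92) for 10 of 10. In limma's fit over all genes, 0 of the 10 passed an adjusted p of 0.05 in either direction, against 0.906% of all genes (0.415% higher and 0.491% lower). At an unadjusted p under 0.05 there were 2 of 10, Itgae higher and Naaa lower in the knockout, against 14.3% of all genes (5.5% higher and 8.82% lower). The knockout and control ranges overlapped in 10 of 10 genes, while in 7.39% of all genes tested the 3 knockout values lay outside the control range. These counts are near the shares of all genes, so they do not set the 10 genes apart from genes at large. The log2 changes ran from -0.16 for Naaa to 0.51 for Itgae with a median of -0.0445, beside -0.0137 for all genes. The median size of the change regardless of sign was 0.0525 for the 10 genes and 0.0805 for all genes. The 95% interval of the change lay within 1.5-fold in both directions for 9 of the 10 genes, Itgae being the exception, so a change beyond 1.5-fold lies outside the interval of each of these 9.

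**Figure D1:**
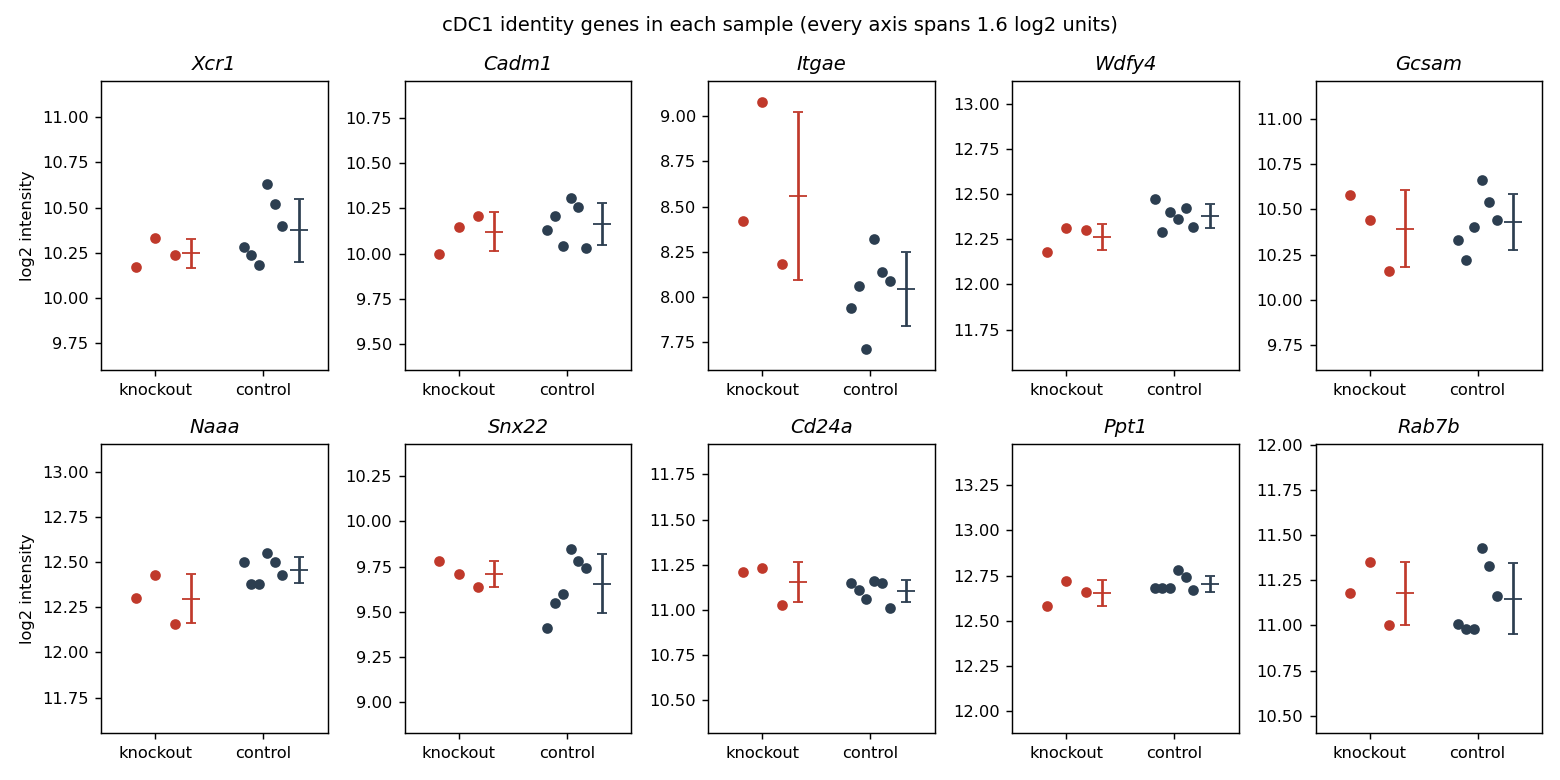
Log2 intensity (vertical axes, each spanning 1.6 log2 units) of the 10 cDC1 identity genes in each knockout sample (red, n = 3) and each control sample (dark blue, n = 6), with bars for the mean ± SD. The groups overlap in every panel, and the value standing farthest from the rest is knockout sample 2 for Itgae at 9.08.

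Among surface molecules, Xcr1 is the one most closely tied to the subset. It encodes the receptor of the chemokine XCL1, which activated CD8 T cells and natural killer cells release. Its log2 intensity was 10.17, 10.33 and 10.24 in knockout samples 1 to 3, against 10.18 in the lowest, 10.34 in the median and 10.63 in the highest control. All 3 knockout values lay below the control mean and 1 lay below the lowest control. The mean was 10.25 ± 0.085 (SD, n = 3) in knockout and 10.37 ± 0.17 (SD, n = 6) in control samples, a log2 change of -0.13 (SE 0.10, 95% interval -0.35 to 0.09, limma's adjusted p = 0.63).

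Cadm1 encodes an adhesion molecule of the immunoglobulin superfamily that binds CRTAM on activated T and natural killer cells. Its intensity was 10.00, 10.15 and 10.21 in knockout samples 1 to 3, against 10.03 in the lowest, 10.17 in the median and 10.31 in the highest control. Knockout sample 1 lay just below the lowest control and the other two within the control range. The log2 change was -0.05 (SE 0.08, 95% interval -0.22 to 0.13, limma's adjusted p = 0.85).

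Itgae, which encodes the integrin chain αE (CD103), had the largest estimate and the widest interval of the 10. CD103 pairs with the β7 chain and binds E-cadherin, and besides cDC1 it is carried by subsets of T cells. Its intensity was 8.42, 9.08 and 8.18 in knockout samples 1 to 3, against 7.71 in the lowest, 8.07 in the median and 8.32 in the highest control. Knockout samples 1 and 2 lay above every control and knockout sample 3 within the control range. The mean was 8.56 ± 0.47 (SD, n = 3) in knockout and 8.04 ± 0.21 (SD, n = 6) in control samples. The log2 change was 0.51 (SE 0.18, 95% interval 0.12 to 0.91), or 1.43-fold, with limma's unadjusted p = 0.016 and adjusted p = 0.22. Over the 84 ways to place 3 of the 9 samples in 1 group, an exact two-sided permutation test gave p = 0.024, where 0.012 is the smallest p it can give. Without knockout sample 2 the log2 change was 0.25 (limma's adjusted p = 0.53). The mean of the T cell markers was 5.34 to 5.43 in knockout and 5.32 to 5.45 in control samples, with 7 of 9 measured markers (Cd3e, Cd3d, Cd3g, Bcl11b, Trat1, Themis and Cd28) at or below the level of the median gene, and 0 of 9 passed the test (0 higher and 1 lower at an unadjusted p under 0.05). Thy1 and Cd5 lay above the median gene. Cd5 was lower in every knockout than in any control (log2 change -0.31, SE 0.09, limma's adjusted p = 0.14). Whether T cells bear on the Itgae values was not tested. Itgb7, the partner chain, averaged 9.85 in knockout and 9.83 in control samples, a log2 change of 0.01 (SE 0.10, limma's adjusted p = 0.97).

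Cd24a encodes a small, heavily glycosylated protein anchored in the membrane, which is also abundant on B cells, neutrophils and red cell precursors. Its brighter probe read 11.21, 11.23 and 11.03 in knockout samples 1 to 3, against 11.01 in the lowest, 11.13 in the median and 11.16 in the highest control. Knockout samples 1 and 2 lay above every control by a narrow margin. The log2 change was 0.05 (SE 0.06, 95% interval -0.09 to 0.19, limma's adjusted p = 0.81). The dimmer probe averaged 8.27 ± 0.21 (SD, n = 3) in knockout and 8.39 ± 0.14 (SD, n = 6) in control samples and differed by -0.12 (SE 0.10), so the sign of the Cd24a estimate depends on the probe. Averaged over 13 measured B cell markers, immunoglobulin genes left out, the level was 0.17, -0.13 and 0.77 away from the control mean in knockout samples 1 to 3, against -0.09 to 0.12 in the controls. Knockout sample 3, the highest of all for these markers, had the lowest Cd24a of the knockouts by either probe. With the mean of the B cell markers as a covariate the log2 change of Cd24a was 0.096 (limma's adjusted p = 0.69). This covariate overlaps with genotype, so B cell content and genotype cannot be told apart in that fit.

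Among the genes of endosomes and antigen handling, Wdfy4 encodes a large BEACH domain protein that cDC1 need to cross-present material of cells. Its intensity was 12.18, 12.31 and 12.30 in knockout samples 1 to 3, against 12.29 in the lowest, 12.38 in the median and 12.47 in the highest control. All 3 knockout values lay below the control mean, and 2 of them lay within the control range. This made a log2 change of -0.12 (SE 0.06, 95% interval -0.25 to 0.02), with limma's unadjusted p = 0.084 and adjusted p = 0.44.

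Rab7b encodes a small GTPase of transport from endosomes to the Golgi apparatus. Its intensity was 11.18, 11.35 and 11.00 in knockout samples 1 to 3, against 10.98 in the lowest, 11.09 in the median and 11.43 in the highest control. All 3 knockout values fell inside the control range, and the log2 change was 0.03 (SE 0.12, 95% interval -0.23 to 0.28, limma's adjusted p = 0.95).

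Snx22 encodes a sorting nexin, one of a family of proteins that bind phosphoinositides on endosomal membranes. It read 9.78, 9.71 and 9.64 in knockout samples 1 to 3, against 9.41 in the lowest, 9.67 in the median and 9.85 in the highest control. The knockout values again fell inside the control range, with a log2 change of 0.05 (SE 0.09, 95% interval -0.16 to 0.26, limma's adjusted p = 0.86).

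The lysosomal enzymes among the 10 genes were Naaa and Ppt1. Naaa encodes the acid amidase that hydrolyses N-acylethanolamines such as palmitoylethanolamide. Its intensity was 12.30, 12.43 and 12.16 in knockout samples 1 to 3, against 12.38 in the lowest, 12.46 in the median and 12.55 in the highest control. Knockout samples 1 and 3 lay below every control and knockout sample 2 within their range. The mean was 12.30 ± 0.13 (SD, n = 3) in knockout and 12.46 ± 0.072 (SD, n = 6) in control samples. Between these means the log2 change was -0.16 (SE 0.07, 95% interval -0.32 to -0.0029), or 1.12-fold, with limma's unadjusted p = 0.047 and adjusted p = 0.34, and the exact two-sided permutation test gave p = 0.06.

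Ppt1 encodes palmitoyl-protein thioesterase 1, which removes fatty acids from proteins during their breakdown in lysosomes. It varied least of the 10 genes between controls, with an SD of 0.045 (n = 6). Its intensity was 12.58, 12.72 and 12.66 in knockout samples 1 to 3, against 12.67 in the lowest, 12.68 in the median and 12.78 in the highest control. Knockout samples 1 and 3 lay below every control. The log2 change was -0.05 (SE 0.06, 95% interval -0.18 to 0.07, limma's adjusted p = 0.74). Whether its C/EBP letters at 75 bases before the start site bear on these values was not tested.

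Gcsam encodes an adaptor protein best known from germinal centre B cells, where it takes part in B cell receptor signalling and cell movement. Its intensity was 10.58, 10.44 and 10.16 in knockout samples 1 to 3, against 10.22 in the lowest, 10.42 in the median and 10.66 in the highest control. Knockout sample 3, with the highest B cell markers, had the lowest Gcsam of all 9 samples. B cell content and genotype cannot be told apart in these samples, and whether B cells bear on the Gcsam values was not tested. Gcsam differed by a log2 change of -0.04 (SE 0.11, 95% interval -0.28 to 0.20, limma's adjusted p = 0.91).

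**Figure D2:**
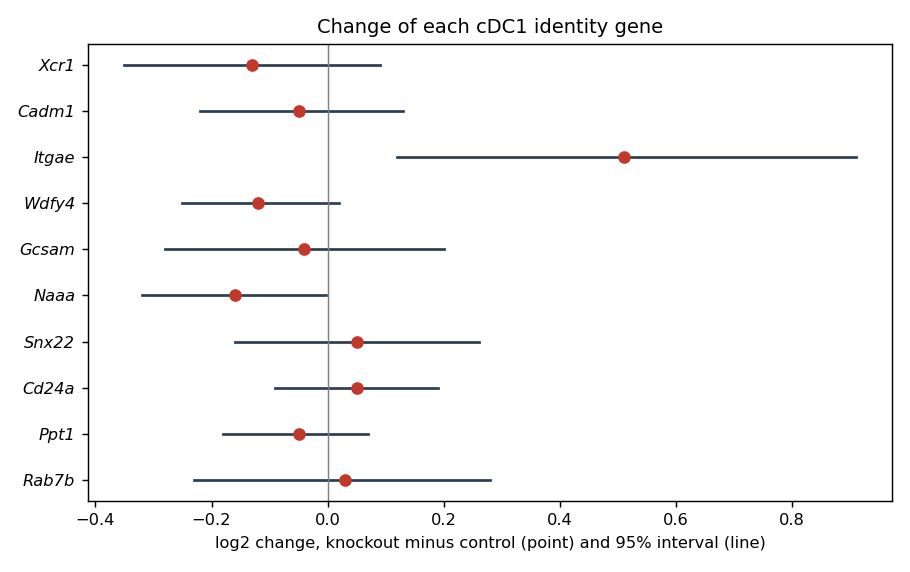
Log2 change of each cDC1 identity gene, knockout minus control (point), with limma's 95% interval (line), from 3 knockout and 6 control samples. The intervals of Itgae (0.12 to 0.91) and Naaa (-0.32 to -0.0029) do not include 0, and neither gene passed after adjustment over all genes.

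Averaged over the 10 genes, the knockout samples lay within the spread of the controls. This did not hold gene by gene, nor for knockout sample 3 when Itgae was left out. Only Snx22 and Rab7b had every knockout value inside the control range. The farthest was Itgae, 1.03 from its control mean in knockout sample 2, against -0.34 to 0.27 in controls. Control sample 4 was the highest control for 9 of the 10 genes, Wdfy4 being the exception, and was above the control mean in 9. Control sample 5 was above the control mean in 10 of 10, and control samples 1, 2 and 3 were above it in 3, 3 and 1. Among knockouts, samples 1, 2 and 3 were above the control mean in 5, 6 and 2 of the 10 genes. Averaged over the 10 genes, knockout samples 1 to 3 deviated from the control mean by -0.0098, 0.13 and -0.09, against -0.10 in the lowest control (sample 3) and 0.16 in the highest (sample 4). Without Itgae the knockout values were -0.05, 0.03 and -0.11, against -0.08 to 0.15 in the controls. Knockout sample 3 then lay below every control.

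**Figure D3:**
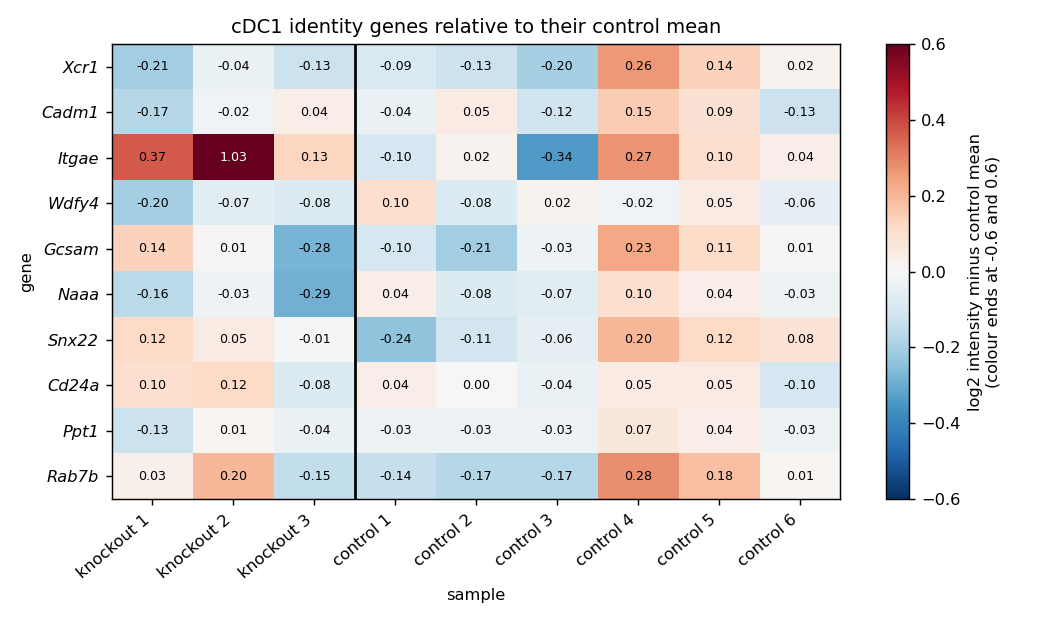
Log2 intensity of each cDC1 identity gene (rows) in each sample (columns, knockouts left of the line), minus the mean of the 6 controls, with colours ending at -0.6 and 0.6. Control sample 4 is above the control mean in 9 of 10 genes, control sample 3 is below it in 9, and the value of 1.03 belongs to Itgae in knockout sample 2.

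For 5 genes, Xcr1, Itgae, Gcsam, Snx22 and Rab7b, the values of controls 1 to 3 all lay below those of controls 4 to 6, as they did in 9.80% of all genes. The opposite order held for 0 of the 10 and for 6.38% of all genes. The labels name no difference between these controls. Array medians separated the same sets, at 5.546 to 5.555 in controls 1 to 3 and 5.49 to 5.508 in controls 4 to 6. Whether this bears on the 10 genes was not tested. Xcr1 averaged 10.23 in controls 1 to 3 and 10.51 in controls 4 to 6, and Rab7b averaged 10.99 and 11.31 in the same sets. The estimates shifted with the controls used. The log2 change of Xcr1 was 0.013 against controls 1 to 3 and -0.27 against controls 4 to 6, that of Rab7b 0.18 and -0.13, that of Snx22 0.19 and -0.08, that of Gcsam 0.07 and -0.16, and that of Itgae 0.65 and 0.37, and the lowest of limma's adjusted p-values among these was 0.24. Xcr1 and Gcsam, whose windows hold the AICE letters, were both among these 5 genes, as was Snx22, whose windows hold none of the letters searched. Itgae and Rab7b had no window, and whether the letters bear on the order of the controls was not tested.

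Other genes tied to cDC1 did not pass the test either. Of 24 listed, 23 were measured by a probe of their own, and Clec9a, read only together with another gene, was not analysed here. By limma, 0 of the 23 passed an adjusted p of 0.05, against 0.906% of all genes, with a median change of -0.02. At an unadjusted p under 0.05, 1 was higher and 1 lower, against 5.5% and 8.82% of all genes. The factors that specify the subset did not pass after adjustment. Irf8 was 11.41, 11.65 and 11.60 in knockout samples 1 to 3, against 11.54 to 11.69 in controls, a log2 change of -0.06 (SE 0.07, 95% interval -0.21 to 0.09, limma's adjusted p = 0.76). Batf3 changed by -0.10 (SE 0.09, 95% interval -0.30 to 0.10, adjusted p = 0.68 by limma), and Id2, an inhibitor of DNA binding needed for cDC1, by 0.12 (SE 0.06, 95% interval -0.03 to 0.26, adjusted p = 0.46 by limma). Cd8a, the surface chain that names the splenic subset, was 11.51, 11.68 and 11.51 in knockout samples 1 to 3, against 11.59 to 12.03 in controls, a log2 change of -0.22 (SE 0.09, limma's unadjusted p = 0.028, adjusted p = 0.28). Gpr33, an orphan chemoattractant-type receptor, was 9.59, 9.82 and 9.57, against a control median of 9.35 and a highest control of 9.56, so that all 3 knockout values exceeded the controls by a narrow margin (log2 change 0.34, SE 0.13, limma's adjusted p = 0.25). Tlr3, the endosomal sensor of double-stranded RNA, changed by -0.03 (SE 0.11, limma's adjusted p = 0.95). Itgb7, Irf8, Batf3, Id2 and Tlr3 were chosen after their values were seen. Averaged over these 23 genes, the deviation was -0.04, 0.09 and -0.03 in knockout samples 1 to 3, against 0.15 in control sample 4 and -0.08 in control sample 3, the highest and lowest controls, which were also the highest and lowest for the 10 identity genes.

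The profile over the 9 samples most like that of Xcr1, by the root mean square difference of log2 values centred on each gene's mean, was that of Fndc7 (0.058), followed by Daglb (0.058), Cd36 (0.058), Stimate (0.061) and Ano10 (0.064), among 7683 protein-coding genes with a mean intensity of at least 7, whose median was 0.17. Cd36, a scavenger receptor for lipids and dying cells, is itself on the list of cDC1-associated genes. The nearest of the 10 genes to Xcr1 were Rab7b (0.10), Naaa (0.11), Ppt1 (0.11) and Cadm1 (0.11), and the farthest was Itgae (0.36). The profiles nearest to the mean of the 10 genes were those of Smurf1 (0.037), Rpl14 (0.041), Fndc5 (0.041), Lsr (0.042) and Washc5 (0.043), and none of these 5 passed the test between genotypes.

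Partners and close relatives of the 10 genes, and the machinery of cross-presentation, also held no gene past the threshold when the arrays were weighted equally. Among 21 measured partners and relatives, 0 passed by limma (2 higher and 2 lower at an unadjusted p under 0.05), with a median change of 0.04, and with array weights 1 was lower. Over all genes, 5.5% were higher and 8.82% lower at an unadjusted p under 0.05. The lowest p belonged to Cadm3, an adhesion molecule related to Cadm1, at 9.08, 8.93 and 9.14 in knockout samples 1 to 3, against 9.24 to 9.55 in controls (log2 change -0.28, SE 0.08, limma's adjusted p = 0.14). Napepld, which makes the N-acylethanolamines that Naaa degrades, was 7.38, 6.68 and 6.87, against 7.17 to 7.73 in controls (log2 change -0.45, SE 0.16, limma's adjusted p = 0.23). Of 25 measured genes of cross-presentation, 0 passed by limma (0 higher and 5 lower at an unadjusted p under 0.05), with a median of -0.04. Among them the immunoproteasome subunit Psmb10 differed by -0.23 (SE 0.08, limma's adjusted p = 0.19) and the GTPase Rab27a by -0.26 (SE 0.09, limma's adjusted p = 0.23).

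Markers of other cells in the gate included genes that passed the test. Of 19 measured cDC2 markers, 3 were higher and 2 lower by limma, against 0.415% and 0.491% of all genes, with a median of -0.12. At an unadjusted p under 0.05, 5 of the 19 were higher and 5 lower, against 5.5% and 8.82% of all genes. Dtx1, a Notch target, was 9.63, 9.42 and 9.61 in knockout samples 1 to 3, against 9.94 to 10.11 in controls (log2 change -0.46, SE 0.07, limma's adjusted p = 0.018), and Ltb, the lymphotoxin β chain, fell by 0.40 on the log2 scale. Clec4a3 rose by 0.56 and Cd209a by 0.54, although the second Cd209a probe differed by -0.63. The third gene that passed as higher was the lectin Mgl2 (0.90), chosen after its value was seen. Mgl2 was dim, averaging 5.74 in controls, below the median gene (5.92). The count of 5 that passed after adjustment (3 higher and 2 lower) depended on the samples and settings. It fell to 0 of the 19 without knockout sample 2, and was 1 to 3 without any 1 of the other samples. It was also 0 with controls 1 to 3 only, with controls 4 to 6 only, with the replicate block, with a minimum change of 1.2-fold and with the red pulp macrophage covariate. It was 2 (1 higher and 1 lower) with each array centred on its median and with the B cell covariate, and 8 (4 higher and 4 lower) with array weights. Of 12 red pulp macrophage markers, 0 passed by limma (8 higher and 0 lower at an unadjusted p under 0.05), with a median change of 0.605 and 12 of 12 above 0. For this list, knockout samples 1 to 3 deviated from the control mean of the list by 0.28, 0.80 and 0.72, against -0.58 to 0.56 in controls. The count of 0 became 2 higher with array weights, 2 higher among genes above the median gene and 1 higher without control sample 2. Of 12 monocyte markers 1 passed, Ace (log2 change 1.16, SE 0.15, limma's adjusted p = 0.0096). The median change of the list was 0.322, with 11 of 12 above 0, and the deviations were 0.28, 0.35 and 0.55 in knockouts, against -0.20 to 0.16 in controls. The count of 1 became 0 with controls 1 to 3 only, with controls 4 to 6 only, with the replicate block, with a minimum change of 1.2-fold and with the red pulp macrophage covariate, 2 without control sample 2, 4 among genes above the median gene and 5 with array weights. Covariates were fitted for the red pulp macrophage and B cell markers, and the part of the monocyte and cDC2 markers in the values of the 10 genes was not tested. With the mean of the red pulp macrophage markers in the fit, the log2 change of Itgae was 0.33 (limma's adjusted p = 0.87), and with the mean of the B cell markers it was 0.74 (limma's adjusted p = 0.10). Both covariates overlap with genotype, the B cell mean mostly through knockout sample 3 (0.77). A fit with them takes out part of the genotype difference, so marker content and genotype cannot be told apart. The same holds for the counts given above with these covariates. None of 11 measured plasmacytoid DC, 13 B cell, 7 natural killer cell, 8 neutrophil and 4 erythroid markers passed by limma, with 2, 3, 1, 2 and 1 higher and 0 lower at an unadjusted p under 0.05, nor did any of 11 genes shared by conventional DCs (1 higher and 0 lower). In the alternatives, 1 B cell marker was higher without knockout sample 2, where the list's median change was 0.293, against 0.108 with all samples, and the 1 neutrophil marker above the median gene was higher in the fit limited to such genes. Whether the 10 genes and the cDC2 markers responded differently was not tested.

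**Figure D4:**
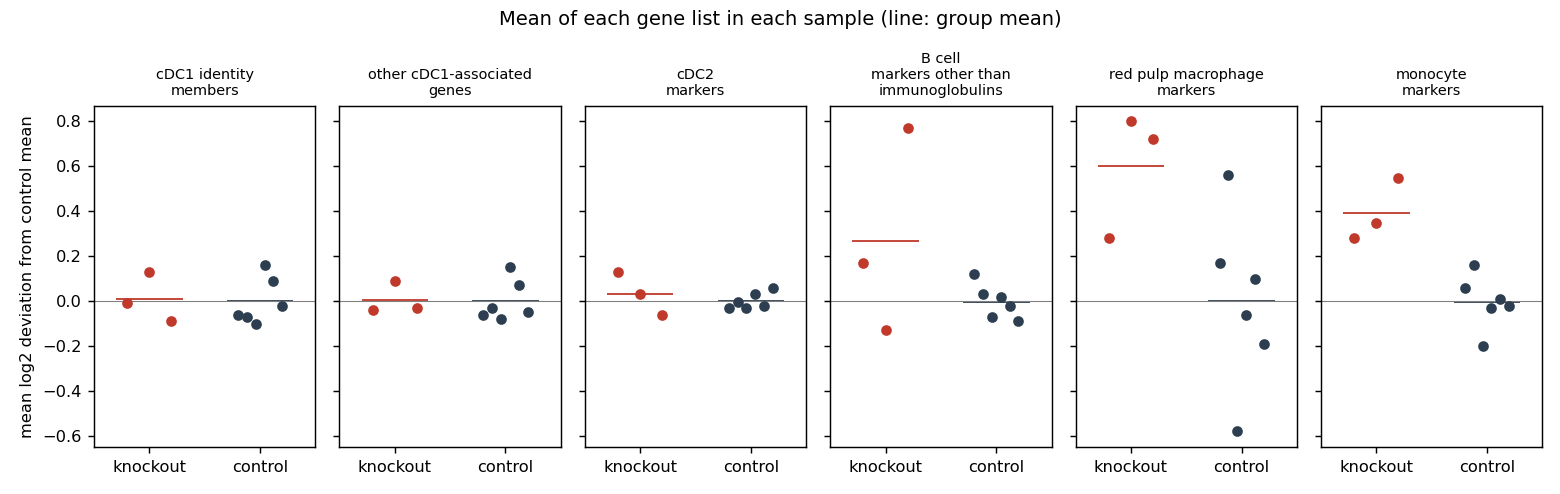
Mean log2 deviation from the control mean (vertical axis) of 6 gene lists in each knockout (red, n = 3) and control (dark blue, n = 6) sample, with a line at each group mean. The knockout values of the cDC1 identity genes (-0.09 to 0.13) lie within the range of the controls (-0.10 to 0.16), while those of the monocyte markers (0.28 to 0.55) lie above all controls (-0.20 to 0.16). With Itgae left out (not drawn), knockout sample 3 (-0.11) lies below all controls (-0.08 to 0.15).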

How the data were processed

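The authors deposited log2 intensities, 1 value per probe, made with RMA per the submitters' processing notes. RMA corrects background, gives all arrays 1 distribution and summarizes oligonucleotides, so a common shift of most genes would be lost and changes of dim probes are compressed. Its version and the probes' genome build were not given in the sources used here. That the scale is log2 was judged from the values. Of 41801 rows 34468 had a value in every sample, of which 23521 carried 1 symbol in the platform annotation, 1814 several and 9133 none.

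The brightest probe stood for a gene with several, which left 22180 genes. The test was limma 3.58.1 (lmFit and eBayes) in R 4.3.3 without covariates, two-sided, adjusted by Benjamini-Hochberg over all genes at 0.05. On data simulated with the spread of the controls, it recovered 59.7% of changes of 0.5 log2 units. Changes of 1 and 2 log2 units were recovered in 94% and 97%, so a true change near 0.5 can go uncalled. Changes are knockout minus control. The genes, lists and tests were chosen with earlier results of these data known. By rule, the genes to name were the 10 members, from each list the 2 with the smallest p and up to 4 past 0.05, the 2 brightest of each cell type list and the nearest profiles, and only those that bear on a result are printed. Same-numbered samples did not deviate together (correlations of -0.058, -0.034 and -0.097 across genes), so the numbers were not taken as pairs. Alternatives covered normalization, the variance model, array weights, the replicate block, the controls used, left-out samples, dim genes, probes, a minimum change and marker covariates. The number of arrays limits the precision. Python 3.11.15 with scipy 1.17.1 was used for permutation tests and matplotlib 3.10.9 for figures.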

Additional observations from a re-analysis of the deposited data

How the results depend on the processing

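None of the 10 genes passed an adjusted p of 0.05 in limma's fit (2 at an unadjusted p under 0.05), and this count was 0 under all 22 alternatives run, with 0 to 3 at an unadjusted p under 0.05. The lowest adjusted p of any of them was 0.055, for Itgae with array weights, whose estimate ran from 0.25 to 0.74. Itgae, Wdfy4, Naaa and Ppt1 kept their sign under every alternative. Other estimates changed sign. With controls 1 to 3 only, and identically with the replicate number as a block, Xcr1 was 0.013 and Gcsam 0.073, against -0.13 and -0.04 with all samples. With controls 4 to 6 only, Snx22 was -0.083 and Rab7b -0.13. With the mean of its probes Cd24a was -0.036, and Gcsam was 0.062 with the B cell and 0.092 with the red pulp macrophage covariate. With 1 sample left out, estimates ranged from -0.092 to 0.013 for Cadm1, from -0.13 to 0.076 for Gcsam and from -0.061 to 0.12 for Rab7b. The count over all genes, 201, was 125 with arrays centred on their medians, 652 with array weights, 2 with the replicate block, 3 and 20 with controls 1 to 3 and 4 to 6 only, 544 among genes above the median gene, 7 with a minimum change of 1.2-fold, 102 and 7 with the B cell and red pulp macrophage covariates, and 33 to 332 with 1 sample left out, the lowest without knockout sample 2 and the highest without knockout sample 1. Centring arrays on their medians moved the median of all genes by -0.0095. The cause of these shifts was not tested, beyond the fewer samples or genes that some alternatives use. The marker covariates overlap with genotype, and their fits take out part of the genotype difference.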
